A study of Homo sapiens with 16 samples.

Results

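The enzymes that convert squalene to cholesterol were followed over 45 hours in MCF10A cells treated with the HER2 kinase inhibitor CP724,714. The members are the array rows whose symbol is SQLE, LSS, CYP51A1, TM7SF2, SC4MOL, NSDHL, EBP, SC5DL or DHCR7, each row taken on its own. The rule uses the symbol alone and no measured value, but the list was drawn up with earlier results of these data known. There are 11 such probes for 9 genes among 20589 rows and 18190 symbols. The symbols SC4MOL and SC5DL are those of the array, and the current names are MSMO1 and SC5D.

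MCF10A is an established, nontransformed human mammary epithelial line, grown here in serum-free Ham's F-12 medium with 10 ng/ml EGF, 5 µg/mL insulin, hydrocortisone and bovine serum albumin. The 0 hour array holds RNA of untreated cells, and the 15 later arrays hold RNA of cells given 1 µM CP724,714, which inhibits the HER2 receptor kinase, taken from parallel cultures at intervals of 3 hours. There was 1 array for each of the 16 time points and no replicate. All cultures came from the same line and medium, the treatment began with fresh medium, and no time series without inhibitor was analysed here, so the inhibitor, the fresh medium and time in culture cannot be told apart.

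Cholesterol synthesis starts from acetyl-CoA and runs through mevalonate to the linear hydrocarbon squalene. Squalene is then oxidised, closed into the first sterol, lanosterol, and stripped of methyl groups, and its double bonds are moved and reduced until cholesterol is reached. The genes of both stretches are classic targets of the SREBP transcription factors, which are released from the endoplasmic reticulum when its sterol content is low and which act at promoters together with NF-Y and Sp1.

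The promoters of 8 of the 9 genes were found in a RefSeq promoter table of the human genome build GRCh38.p14, and that of SQLE was not. Below are the 250 bases before the annotated start for LSS and TM7SF2, the genes with the largest fall by 12 to 21 hours, for SC4MOL, the gene with the largest fall at 6 to 9 hours, and for NSDHL, whose course was closest to the mean of the others. Each is written along the strand of its gene. Capitals mark the letters CCAAT (the NF-Y box) and GGGCGG (the Sp1 box) or their reverse complements.
LSS, chr21:46228775-46229024, minus strand: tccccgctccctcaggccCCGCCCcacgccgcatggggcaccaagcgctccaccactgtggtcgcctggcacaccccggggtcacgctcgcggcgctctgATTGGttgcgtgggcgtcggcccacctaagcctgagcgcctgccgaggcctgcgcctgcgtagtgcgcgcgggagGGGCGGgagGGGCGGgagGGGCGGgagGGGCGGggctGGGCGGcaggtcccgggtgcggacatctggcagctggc
TM7SF2, chr11:65111622-65111871, plus strand: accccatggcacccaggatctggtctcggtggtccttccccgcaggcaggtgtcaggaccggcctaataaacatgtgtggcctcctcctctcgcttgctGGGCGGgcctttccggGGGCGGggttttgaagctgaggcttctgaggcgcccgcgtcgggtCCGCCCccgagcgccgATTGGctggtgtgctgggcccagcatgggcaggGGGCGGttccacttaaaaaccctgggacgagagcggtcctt
SC4MOL, chr4:165327419-165327668, plus strand: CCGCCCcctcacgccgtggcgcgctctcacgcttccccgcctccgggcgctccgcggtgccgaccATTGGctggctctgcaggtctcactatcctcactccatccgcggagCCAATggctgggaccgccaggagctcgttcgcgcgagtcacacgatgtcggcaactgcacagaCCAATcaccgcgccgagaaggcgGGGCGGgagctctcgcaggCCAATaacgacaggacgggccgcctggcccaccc
NSDHL, chrX:152830813-152831062, plus strand: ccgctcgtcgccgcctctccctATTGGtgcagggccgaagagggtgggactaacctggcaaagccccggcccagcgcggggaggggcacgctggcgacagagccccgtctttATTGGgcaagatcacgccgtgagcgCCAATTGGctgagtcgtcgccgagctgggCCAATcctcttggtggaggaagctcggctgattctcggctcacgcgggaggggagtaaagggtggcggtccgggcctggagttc

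The search covered 250 bases before to 50 bases after each start on both strands. The table lists 10 promoters for the 8 genes, since SC5DL and DHCR7 have 2 starts each. CCAAT was found in 8 of the 10, against 34.6% of the 35116 promoters of the table, and GGGCGG in 8 of the 10, against 45.0%. By gene, each was found in 7 of 8, and the second DHCR7 start held neither. NSDHL held 5 CCAAT matches, of which the one at -113 and the one at -110 overlapped on opposite strands, and no GGGCGG. SC4MOL held 4 CCAAT matches and EBP 3, whereas LSS held 1 and 7 GGGCGG matches, 5 of them in a run from -75 to -33. CYP51A1 was the gene without CCAAT. The letters TCACNCCAC, one written form of the sterol regulatory element, occurred in 0 of the 8 genes and in 1.13% of all promoters. No match of one motif overlapped a match of another. These matches describe the letters of the windows and are no measurement of binding.

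**Figure D1:**
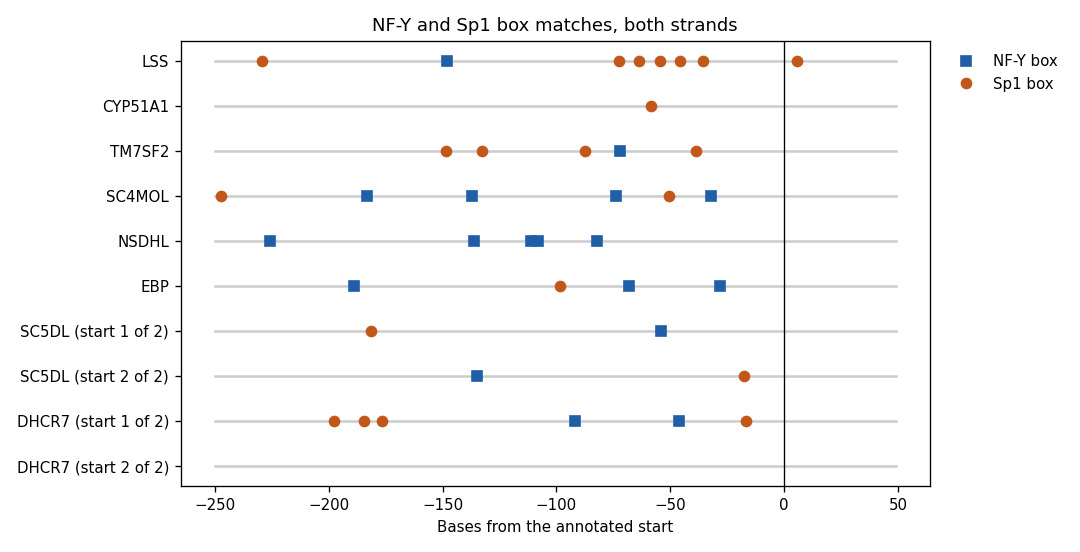
Positions of CCAAT (NF-Y box, squares) and GGGCGG (Sp1 box, circles) in the promoters of 8 genes, in bases from the annotated start, with SC5DL and DHCR7 shown at 2 starts each. NSDHL has 5 NF-Y boxes and no Sp1 box, LSS has 7 Sp1 boxes, and CYP51A1 has no NF-Y box.

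Arrays were comparable in brightness, with a median deposited intensity of 210 to 254 and 50.1% to 52.9% of rows above background at a detection p under 0.05. Log2 intensities of neighbouring time points correlated at 0.983 to 0.996 across probes. Among mammary epithelial markers, 9 of 13 probes, KRT5, KRT17, KRT18 and TACSTD1 (EPCAM) included, were above background on all 16 arrays, while KRT14 was so on 1. Of 8 fibroblast marker probes, 6 were above background on no array, COL1A1 and COL3A1 among them, as were 5 of 9 immune and endothelial probes, including CD3E, CDH5 and VWF. CD14 and PECAM1 were dim but rose from 0-3 hours to 36-45 hours by 1.80 and 1.02 on the log2 scale (adjusted p = 2.2e-07 and 9e-05, limma), while the other tested probe of the list, for PTPRC, changed by -0.12 (adjusted p = 0.66). The summed level of that list went from 310 to 324 at 0-3 hours to 500 to 576 at 36-45 hours. Their part in the results was not tested.

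Of the 11 probes, 10 were above background on all 16 arrays. The second SC5DL probe, ILMN_24412, was above background on none, with deposited intensities of 166 to 206, so it was not tested. Values below are background-corrected, quantile normalized log2 intensities of 1 array each. Because time points had no replicate, neighbouring arrays were set together in 5 windows (0-3, 6-9, 12-21, 24-33 and 36-45 hours, with 2, 2, 4, 4 and 4 arrays) and compared in 1 limma fit over the 11957 probes above background on at least 3 arrays. The borders of the windows follow steps that earlier results of these same arrays had shown, so the p-values of the comparisons may be too small. The arrays of a window are not replicates of a condition, and the SD and SE of a window also hold the change within it. In RNA from whole cultures, a change in the share of cells that express a gene and a change in RNA per cell cannot be told apart.

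The first arrays after treatment showed little movement. From 0 to 3 hours the 10 probes moved by -0.22 to 0.39 on the log2 scale, and 0 of 10 reached a 1.7-fold difference, against 5.35% of all tested probes. The fall came between 3 and 9 hours. At 6-9 hours, 8 of the 10 probes, for 7 of the 9 genes, were lower than at 0-3 hours at an adjusted p under 0.05 in limma, where 11.1% of all tested probes were lower. The SQLE and CYP51A1 probes did not pass. The median change was -0.84 over the members and -0.0073 over all tested probes. In 9 of the 10 probes both arrays of 6-9 hours lay below both arrays of 0-3 hours, as in 28.7% of all tested probes, and none of the 10 was higher at 6-9 hours at an unadjusted p under 0.05.

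**Figure D2:**
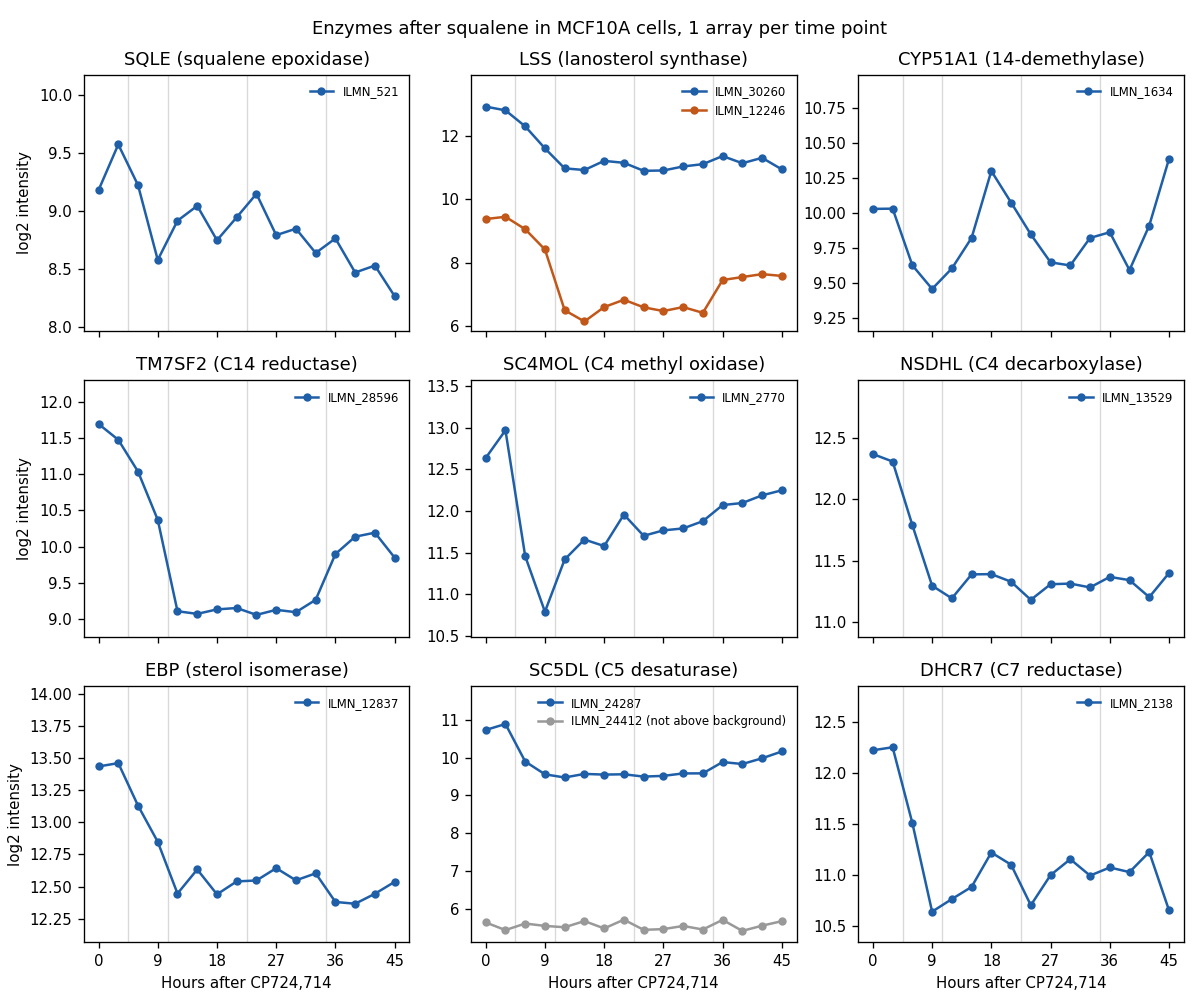
Log2 intensity (vertical axis, own scale in each panel) of each probe of the 9 genes against hours after CP724,714, 1 array per point, with grey vertical lines at the borders of the windows and the SC5DL probe that was never above background in grey. LSS and TM7SF2 drop until 12 hours and stay low to 33 hours, SC4MOL is lowest at 9 hours and climbs back, and CYP51A1 stands at 10.03 at 0 hours and 10.39 at 45 hours.

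SQLE, squalene epoxidase, adds oxygen to squalene and is a control point of the pathway. It stood at 9.18 at 0 hours and 9.57 at 3 hours, and at 9.22 and 8.58 at 6 and 9 hours. Its 6 hour array thus lay between those of 0 and 3 hours, and the 2 windows overlapped. The difference was -0.48 (SE 0.21, adjusted p = 0.10, limma). It was -0.80 without the 6 hour array (adjusted p = 0.014), where it passed, and -0.15 without the 9 hour array.

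LSS, lanosterol synthase, closes the oxidised squalene into lanosterol. The brighter probe ILMN_30260 stood at 12.91 and 12.79 at 0 and 3 hours and at 12.29 and 11.60 at 6 and 9 hours, with no overlap. It was 1.88-fold lower at 6-9 hours (log2 change -0.91, SE 0.17, adjusted p = 5e-04, limma). The dimmer probe ILMN_12246 went from 9.38 and 9.45 to 9.06 and 8.42, a change of -0.67 (SE 0.21, adjusted p = 0.022). For both probes the 9 hour array was the lower one. Without it the change of ILMN_30260 was -0.56 (adjusted p = 0.021) and that of ILMN_12246 was -0.36 and no longer passed (adjusted p = 0.35), nor did ILMN_12246 pass without the 0 hour or the 3 hour array (adjusted p = 0.067 and 0.077).

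CYP51A1 and TM7SF2 act on lanosterol in turn, the first as the cytochrome P450 that removes a methyl group and the second as a reductase of the double bond this leaves. CYP51A1 stood at 10.03 on both the 0 and the 3 hour array and at 9.63 and 9.46 at 6 and 9 hours. These arrays did not overlap, but the difference of -0.49 (SE 0.21) did not pass (adjusted p = 0.093, limma). It passed without the 45 hour array (adjusted p = 0.044), with the same difference. TM7SF2 stood at 11.69 and 11.47 before the fall and at 11.03 and 10.37 at 6 and 9 hours. That was 1.84-fold lower (log2 change -0.88, SE 0.16, adjusted p = 0.00056), and without the 9 hour array the change was -0.55 (adjusted p = 0.022).

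SC4MOL and NSDHL remove the methyl groups at the C4 position, SC4MOL as the oxidase and NSDHL as the dehydrogenase that follows. SC4MOL was at 12.64 and 12.97 at 0 and 3 hours and at 11.46 and 10.79 at 6 and 9 hours. The gap between the windows was the widest among the members, and SC4MOL was 3.21-fold lower (log2 change -1.68, SE 0.17, adjusted p = 1.3e-06, limma). NSDHL went from 12.37 and 12.31 to 11.79 and 11.29, also with no overlap, and was 1.74-fold lower (log2 change -0.80, SE 0.12, adjusted p = 7.6e-05).

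EBP, SC5DL and DHCR7 act late on the sterol rings: EBP shifts a ring double bond, SC5DL introduces another, and DHCR7 reduces the one that EBP shifted. EBP had the smallest fall that passed, from 13.43 and 13.46 to 13.13 and 12.85 (log2 change -0.46, SE 0.091, adjusted p = 0.00095, limma). The SC5DL probe ILMN_24287 stood at 10.73 and 10.88 at 0 and 3 hours and at 9.90 and 9.56 at 6 and 9 hours, 2.11-fold lower (log2 change -1.08, SE 0.12, adjusted p = 5.2e-06). DHCR7 was at 12.22 and 12.25 and then at 11.51 and 10.64, 2.24-fold lower (log2 change -1.16, SE 0.22, adjusted p = 0.00054). All 3 genes had their windows apart, and the change of DHCR7 rested in part on the 9 hour array, without which it was -0.73 (adjusted p = 0.024).

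**Figure D3:**
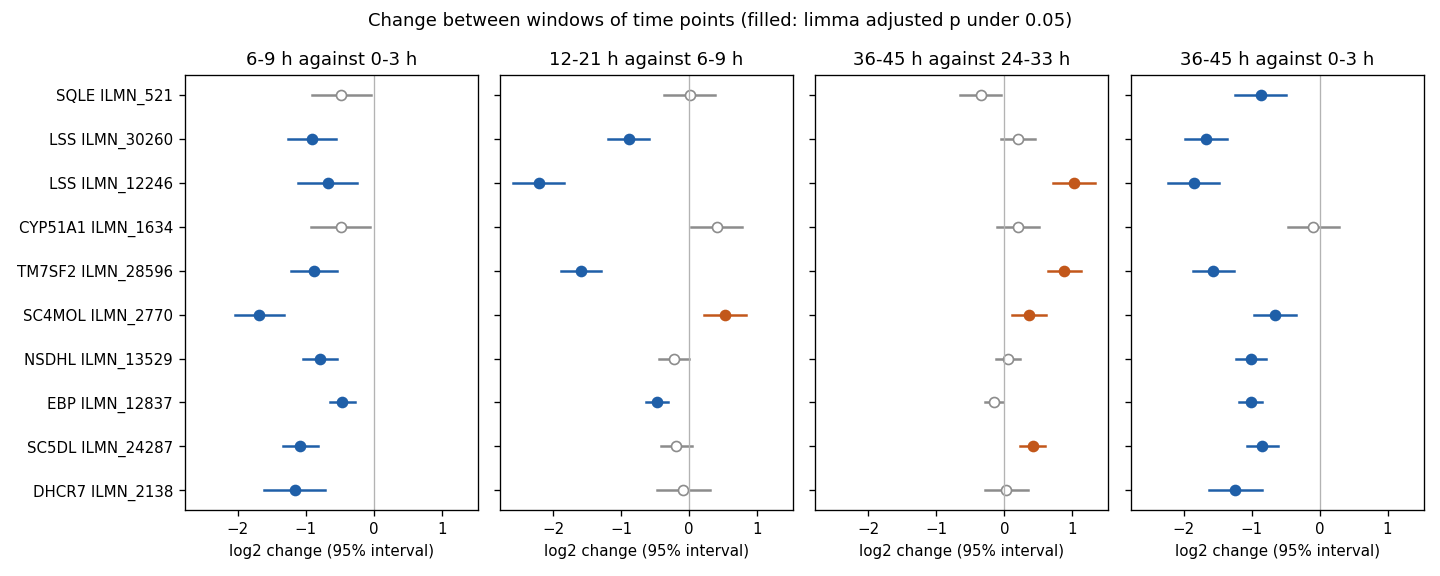
Log2 change of each tested probe (points) with its 95% interval (lines) between windows of time points, from 1 limma fit; filled points have an adjusted p under 0.05, blue for lower and orange for higher. At 6-9 hours 8 of 10 probes are lower, at 12-21 hours 4 fall further while SC4MOL rises, at 36-45 hours 4 rise, and 9 of 10 remain below 0-3 hours.

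After 9 hours the enzymes took different courses. From 6-9 to 12-21 hours, 4 probes, for LSS (both), TM7SF2 and EBP, fell further, where 12.6% of all tested probes were lower, and 1, for SC4MOL, rose, where 12.8% were higher. The other 5 did not pass, with changes of -0.22 to 0.41. TM7SF2 fell most clearly, to 9.11, 9.07, 9.13 and 9.15 at 12, 15, 18 and 21 hours, all below its 10.37 at 9 hours, and was 3.00-fold lower than at 6-9 hours (log2 change -1.58, SE 0.14, adjusted p = 8.1e-07, limma). The brighter LSS probe stood at 10.97, 10.92, 11.20 and 11.14 on these arrays, 1.85-fold lower (log2 change -0.88, SE 0.14, adjusted p = 0.00025; -0.54 without the 6 hour array). The dimmer LSS probe stood at 6.51, 6.16, 6.61 and 6.84 (log2 change -2.21, SE 0.18, adjusted p = 2.9e-07), and without background correction its change was -1.21. EBP moved less, to between 12.44 and 12.63 (log2 change -0.47, SE 0.078, adjusted p = 0.00027).

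SC4MOL had its lowest array at 9 hours and stood at 11.42, 11.66, 11.58 and 11.96 at 12 to 21 hours. These arrays overlapped with its 6 hour value of 11.46 and all lay above that of 9 hours. The rise of 0.53 (SE 0.15, adjusted p = 0.012, limma) was 0.86 without the 6 hour array (adjusted p = 0.0018) and 0.20 without the 9 hour array, where it did not pass (adjusted p = 0.39). CYP51A1 had a change of 0.41 (SE 0.18, adjusted p = 0.10), with 10.30 at 18 hours, above both arrays of 0-3 hours. It passed under median scaling (0.52, adjusted p = 0.043) and without the 12 hour or the 45 hour array (adjusted p = 0.037 and 0.049). NSDHL (-0.22) and SC5DL (-0.19) passed as lower only when the 9 hour array was left out (-0.46 and -0.36, adjusted p = 0.0034 and 0.049). SQLE (0.013) and DHCR7 (-0.082) did not pass in any of the settings tried.

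No member passed in the middle of the series. Between 12-21 and 24-33 hours, 0 of 10 probes passed in limma, 0 of 10 had an unadjusted p under 0.05, and 0.0669% of all tested probes passed in either direction. The changes ran from -0.21 for CYP51A1 to 0.13 for SC4MOL. TM7SF2, at 9.06, 9.13, 9.10 and 9.27 at 24, 27, 30 and 33 hours, changed by 0.020 (95% interval -0.22 to 0.26), and SC5DL, at 9.50, 9.52, 9.58 and 9.58, by 0.0067 (95% interval -0.18 to 0.19). Between the arrays of 21 and 24 hours the deposited background shifted, with a median intensity of 187 before and 172 after over the 7166 probes never above background. Its part in comparisons across that border was not tested.

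Late in the series many probes of the array changed, members among them. From 24-33 to 36-45 hours, 4 of the 10 probes were higher, where 22.6% of all tested probes were. Lower were 0 of 10, where 22.7% of all tested probes were. With so few probes, 4 of 10 is near the share of all tested probes and is not read as a trait of these enzymes. SQLE and EBP were lower at an unadjusted p under 0.05. TM7SF2 stood at 9.90, 10.14, 10.19 and 9.85 at 36, 39, 42 and 45 hours, each above all its arrays of 12 to 33 hours and below those of 0 to 9 hours, 1.84-fold higher than at 24-33 hours (log2 change 0.88, SE 0.12, adjusted p = 4.5e-06, limma). SC5DL rose to 9.88, 9.83, 9.98 and 10.16, again with no overlap with 24-33 hours (log2 change 0.42, SE 0.088, adjusted p = 0.00064). SC4MOL reached 12.07, 12.10, 12.19 and 12.25 (log2 change 0.37, SE 0.12, adjusted p = 0.017), but under median scaling the change was 0.14 and did not pass (adjusted p = 0.35).

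SQLE was at 8.76, 8.47, 8.53 and 8.26 on the last 4 arrays, and its change from 24-33 hours was -0.35 (SE 0.15, adjusted p = 0.059, limma). It passed as lower under median scaling (-0.44, adjusted p = 0.018) and without any one of the arrays of 0, 3, 6, 9, 33 or 36 hours (adjusted p = 0.028 to 0.046), as well as with only the arrays compared (adjusted p = 0.033) and among probes above background on all 16 arrays (adjusted p = 0.049). EBP changed by -0.15 (SE 0.064, adjusted p = 0.058) and likewise passed as lower under median scaling (-0.37, adjusted p = 0.00029) and without the array of 6, 9 or 45 hours (adjusted p = 0.028 to 0.031), as well as with cyclic loess (-0.18, adjusted p = 0.037) and with only the arrays compared (adjusted p = 0.03). The late changes of NSDHL (0.057, adjusted p = 0.63) and DHCR7 (0.032, adjusted p = 0.89) were within their SEs of 0.085 and 0.15.

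For LSS, 1 of the 2 probes passed in this late stretch. ILMN_12246 went from 6.60, 6.48, 6.61 and 6.43 at 24 to 33 hours to 7.46, 7.55, 7.64 and 7.59 at 36 to 45 hours, a rise of 1.03 (SE 0.15, adjusted p = 1.1e-05, limma). The rise was 0.47 without background correction (adjusted p = 8e-05). ILMN_30260 went from 10.89, 10.90, 11.03 and 11.10 to 11.36, 11.13, 11.30 and 10.94, and its change of 0.20 (SE 0.12) did not pass (adjusted p = 0.19). Whether the probes differed from each other was not tested. From their detection p-values, ILMN_12246 and the SC5DL probe ILMN_24287 were taken as rows that combine several bead types, which is an inference. The transcripts that each probe reads were not analysed here.

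Over the whole series 9 of the 10 probes, for 8 genes, were lower at 36-45 than at 0-3 hours at an adjusted p under 0.05 in limma, where 16.8% of all tested probes were lower. The median change was -1.01 over the members and -0.0067 over all tested probes. The fall was 3.18-fold and 3.61-fold for the LSS probes ILMN_30260 and ILMN_12246 (log2 change -1.67, SE 0.14, and -1.85, SE 0.18), 2.96-fold for TM7SF2 (-1.56, SE 0.14), 2.37-fold for DHCR7 (-1.24, SE 0.19), 2.02-fold for EBP (-1.02, SE 0.078) and 2.01-fold for NSDHL (-1.01, SE 0.10), with adjusted p-values of 2.3e-08 to 4.4e-05. It was smaller for SQLE (-0.87, SE 0.18, adjusted p = 9e-04), SC5DL (-0.84, SE 0.11, adjusted p = 7.7e-06) and SC4MOL (-0.65, SE 0.15, adjusted p = 0.0019). SC4MOL no longer passed without the 3 hour array (-0.49, adjusted p = 0.051). In all 9 probes every array of 36-45 hours lay below both arrays of 0-3 hours, as in 23.9% of all tested probes. CYP51A1 was the exception, with 9.86, 9.59, 9.91 and 10.39 at 36 to 45 hours and a change of -0.092 (95% interval -0.46 to 0.28, adjusted p = 0.73). The 45 hour array was its highest after normalization, whereas in the deposited intensities its highest was that of 18 hours (1550 against 1335 at 45 hours).

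The choice of the starting window mattered for the enzymes that had fallen fastest. When the 4 arrays of 0 to 9 hours were taken as the start, 6 probes were lower at 36-45 hours, where 15% of all tested probes were. SC4MOL was then at 0.19 (adjusted p = 0.68, limma), SC5DL at -0.30 (adjusted p = 0.27) and DHCR7 at -0.66 (adjusted p = 0.055), while NSDHL, at -0.61, still passed (adjusted p = 0.0075).

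A smooth curve over time (a natural spline with 3 degrees of freedom) passed limma's moderated F-test for 9 of the 10 probes, where 54.7% of all tested probes did. The adjusted p-values ran from 3.8e-07 for LSS ILMN_30260 to 0.014 for SC4MOL, which did not pass without the 0 hour array. CYP51A1 did not pass (adjusted p = 0.6), but it did with 5 degrees of freedom (adjusted p = 0.0078), where 56.3% of all tested probes passed. With a straight line in time 4 of the 10 probes passed, and 16.3% of all tested probes.

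Between consecutive arrays the changes of at least 1.7-fold were few, and none was tested. SC4MOL (-1.51) and SC5DL (-0.99) fell past it from 3 to 6 hours, as did 3.5% of all tested probes. DHCR7 (-0.87) did so from 6 to 9 hours, where 1.14% of tested probes did. The dimmer LSS probe (-1.91) and TM7SF2 (-1.26) did so from 9 to 12 hours, where 3.08% did. From 33 to 36 hours only the dimmer LSS probe rose past it (1.03), as did 3.41% of tested probes, and at the other steps no member passed it. From its highest to its lowest array TM7SF2 spanned 6.20-fold, SC4MOL 4.54-fold and LSS ILMN_30260 4.05-fold. The span was 3.06-fold for DHCR7, 2.66-fold for SC5DL, 2.47-fold for SQLE, 2.28-fold for NSDHL, 2.14-fold for EBP and 1.90-fold for CYP51A1. The span of LSS ILMN_12246 was 9.79-fold after background correction and 3.39-fold in the deposited intensities.

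The courses of the members resembled each other to different degrees. Over the 16 arrays, which all members share, the 45 pairs of probes correlated at a median r of 0.69, from -0.039 for SQLE with CYP51A1 to 0.98 for LSS ILMN_12246 with TM7SF2. NSDHL correlated with the mean of the other members at r = 0.97, SC5DL at 0.92, DHCR7 at 0.91 and LSS ILMN_30260 at 0.90. EBP and TM7SF2 followed, each at 0.85, LSS ILMN_12246 at 0.78 and SC4MOL at 0.63. SQLE, at 0.53, and CYP51A1, at 0.20, followed it least. Among all other tested symbols the courses most like the members' mean were those of HMOX1 (heme oxygenase, r = 0.98), SLC6A9 (a glycine transporter, r = 0.97), GNPDA1 (a glucosamine phosphate deaminase, r = 0.97), TNFSF7 (CD70, r = 0.96) and TRIM56 (r = 0.96). These correlations describe 16 arrays of one time series and carry no test. HMOX1 stood at 10.69 at 0 hours, 6.79 at 9 hours and 6.71 at 45 hours.

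Other genes of this stretch were also followed, with 7 tested probes. At 6-9 against 0-3 hours 1 was lower, where 11.1% of all tested probes were, and 0 were higher. Their median change was 0.042. HSD17B7, the ketoreductase of C4 demethylation, changed by -0.37 (adjusted p = 0.14, limma) and C14orf1 (ERG28) by -0.35 (adjusted p = 0.15) at 6-9 hours, and neither passed.

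Upstream of squalene, 8 of 9 probes of the mevalonate pathway were lower at 6-9 than at 0-3 hours (7 under median scaling) and none was higher. Of all tested probes 11.1% were lower. The median change of the list was -1.06. HMGCS1 changed by -2.32 (adjusted p = 1.9e-08, limma) and IDI1 by -1.70 (adjusted p = 4.5e-05), while PMVK did not pass (-0.13, adjusted p = 0.46). From 6-9 to 12-21 hours 4 of these probes rose, where 12.8% of all tested probes did, and 3 fell, where 12.6% did. At 36-45 hours 9 of 9 were lower than at 0-3 hours, where 16.8% of all tested probes were.

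**Figure D4:**
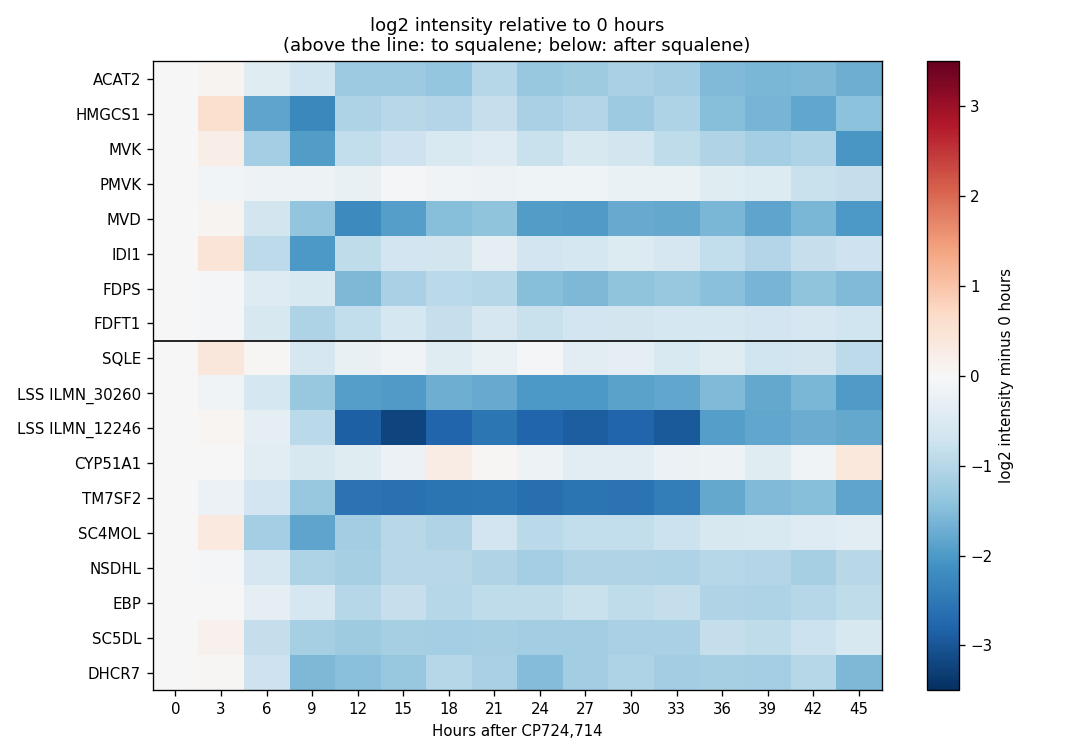
Log2 intensity relative to the 0 hour array (colour) at each time point for 8 mevalonate pathway genes (above the line) and the 10 tested probes of the enzymes after squalene (below). HMGCS1, IDI1 and SC4MOL are lowest relative to 0 hours at 9 hours, whereas TM7SF2 and LSS ILMN_12246 stay lowest from 12 to 33 hours.

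Of the SREBP regulators, 5 of 8 tested probes were lower at 6-9 hours, where 11.1% of all tested probes were lower, and 0 were higher. The brighter probe of INSIG1, which holds SREBP in the endoplasmic reticulum, changed by -3.47 (adjusted p = 3.4e-11, limma), and the dimmer one by -0.57 (adjusted p = 0.11). SREBF1 changed by -2.10 (adjusted p = 2.5e-07) and SREBF2, the main sterol regulator, by -0.47 (adjusted p = 0.056). MBTPS1, a protease that cleaves SREBP, changed by -0.52 at its brighter probe (adjusted p = 0.0078) and by -0.79 at its dimmer one (adjusted p = 0.0022). From 6-9 to 12-21 hours 3 of the 8 rose, where 12.8% of all tested probes did, and 1 fell, where 12.6% did. The brighter INSIG1 probe changed by 2.20 (adjusted p = 1e-08, limma), the dimmer one by -0.92 (adjusted p = 0.0045) and SREBF1 by 0.82 (adjusted p = 0.00092). Among genes of sterol uptake and efflux 4 of 10 tested probes were lower (3 under median scaling), against the same 11.1%, and 0 higher at 6-9 hours. Their median change was -0.11. NPC1, which exports cholesterol from lysosomes, changed by -1.38 (adjusted p = 8.9e-06) and the brightest probe of the exporter ABCG1 by -0.97 (adjusted p = 0.0061). The other tested ABCG1 probe changed by -0.15 (adjusted p = 0.66). Of fatty acid synthesis probes 5 of 8 were lower and 0 higher at 6-9 hours (3 lower under median scaling), again against 11.1% of all tested probes lower. FADS1 changed by -0.89 (adjusted p = 0.00029), ACLY by -0.56 (adjusted p = 0.0044) and SCD by -0.40 (adjusted p = 0.044).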

How the data were processed

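RNA from MCF10A cells at 16 time points was hybridized to Illumina human Ref8v2 arrays, 1 array per time point. The authors deposited linear bead intensities, not yet normalized between arrays. They also deposited a detection p-value for each intensity, made against the negative control beads of its array. Their methods name quantile normalization. The summary software is not given in the sources used here. The 19092 of 20589 rows whose detection p-values were whole multiples of 1 in 708 within 0.001 were taken as single bead types. The other 1497 were taken to combine several, an inference that the sources used here do not state. The detection p-value did not always follow brightness. SC5DL ILMN_24287 had 0.038 at a deposited intensity of 1165 at 45 hours, whereas SQLE had 0.0014 at 419. LAMB3 ILMN_1092, with a mean log2 intensity of 11.24, was above background on no array, so the filter below also left out a bright row.

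From these intensities, the background was corrected with normexp (negative control level inferred from the single rows, offset 16), arrays were quantile normalized and values taken as log2, in R 4.3.3 with limma 3.58.1. The offset understates changes of dim probes. Tests covered the 11957 probes that were above background (detection p under 0.05) on 3 or more arrays. Windows of time points and the spline were fitted over all 16 arrays with an intensity trend, leaving 11 and 12 residual degrees of freedom. Adjusted p-values use the Benjamini-Hochberg method over all 11957 probes. The spread between separate cultures at one time was not measured, so p-values rest on the spread within windows or around the curve. The number of arrays limits the precision. In a simulated series, 200 of 11957 probes were given a change of 1 log2 unit. The 6-9 against 0-3 hour comparison recovered 83% of them with 5 false calls, and the spline 75% with 8. Both results hold only for the noise and the course of change put into the simulation. They do not give the number of false calls in the measured series, where the spread between cultures was not measured.

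Members, windows, gene lists and tests were chosen with earlier results of these data known. Named genes are the members, of each list up to 3 genes with the largest absolute change at 6-9 hours (brightest probe of a gene), INSIG1, SREBF1 and SREBF2, marker genes, and the 5 symbols most correlated with the members' mean. Some genes of the rule are not reported here. Alternatives were median scaling or cyclic loess, uncorrected background, an offset of 50, no intensity trend, other filters, groups and curves, only the arrays compared, and leaving out each array. Symbols are those of the array, updated through RefSeq (GRCh38.p14). The build of its annotation is not given in the sources used here, so probe positions were not used. Figures were drawn with matplotlib 3.10.9.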

Additional observations from a re-analysis of the deposited data

How the results depend on the processing

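The numbers of member probes that passed moved little, but their split by direction did move. Over all alternatives and all arrays left out, they were 6 to 9 at 6-9 against 0-3 hours (7 to 9 with 1 array left out), 5 to 6 at 12-21 against 6-9 hours, 0 at 24-33 against 12-21 hours, 4 to 6 at 36-45 against 24-33 hours and 6 to 9 at 36-45 against 0-3 hours (8 to 9 with 1 array left out). By the spline they were 8 to 10, except for a straight line in time, which gave 4. At 36-45 against 24-33 hours, 4 higher and 0 lower became 3 and 2 under median scaling. They became 4 and 2 without the 6 or the 9 hour array and with only the arrays compared. At 12-21 against 6-9 hours, 1 higher and 4 lower became 0 and 6 without the 9 hour array and 2 and 4 under median scaling. Of 1020 single values under alternatives, 14 changed direction, all of changes that had not passed except that of SC4MOL. Under median scaling these were DHCR7 at 12-21 against 6-9 hours (0.053) and at 36-45 against 24-33 hours (-0.12), NSDHL at 36-45 against 24-33 hours (-0.11) and CYP51A1 at 36-45 against 0-3 hours (0.10). CYP51A1 was also at 0.12 without the step from 21 to 24 hours, and at 0.15 from a start of 0 to 9 hours, where SC4MOL was at 0.19. With 1 array left out, the changes at 12-21 against 6-9 hours ran from -0.31 to 0.34 for SQLE (below 0 without 9 or 15 hours, -0.31 and -0.030), from -0.46 to 0.029 for NSDHL (0.029 without 6 hours) and from -0.52 to 0.35 for DHCR7 (0.35 without 6 hours). At 36-45 against 24-33 hours DHCR7 ran from -0.054 to 0.15 (-0.054 and -0.044 without 24 or 42 hours), and at 36-45 against 0-3 hours CYP51A1 ran from -0.24 to 0.023 (0.023 without 39 hours). With only the arrays compared, 6 probes passed at 6-9 against 0-3 hours, and LSS ILMN_12246 (adjusted p = 0.13, limma) and TM7SF2 (adjusted p = 0.051) did not. The cause was not tested.

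Median scaling changed the balance of all tested probes, with 65.1% of those that passed higher at 6-9 against 0-3 hours (54.9% with quantile normalization), 70.8% (50.4%) at 12-21 against 6-9 hours, 37.4% (49.8%) at 36-45 against 24-33 hours and 74.8% (52.2%) at 36-45 against 0-3 hours, where it moved the median of all probes to 0.10. No paired analysis was possible because each group is 1 time point with 1 array. A chip as a block was not run, since no chip is named in the sources used here. The number of arrays and, for LSS ILMN_12246, a signal close to background limit these values.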
